A study of Mus musculus with 34 samples.

Results

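Cells sorted as Sertoli cells from the testes of Nanos3-knockout (N3KO) mice were compared with cells sorted from wild-type (WT) testes. The arrays were chosen by their titles, 2 of N3KO and 2 of WT cells, which makes 4 of the 34 arrays in the series. Per the labels, the cells were analysed straight after fluorescence-activated cell sorting, and the mice were of strain C57BL6/j and 6 to 8 weeks old in every group used here. The labels give no sort marker, no detail of the Nanos3 allele and no count of mice per sample; the design text calls the pairs biological duplicates, so p-values measure the spread between these duplicates, whatever their source. The 2 arrays of whole testes, whose genotype the labels do not give, and the 2 arrays of WT Sertoli cells cultured with vehicle were used to place each gene. All values are log2 signals minus the array's 75th percentile, and a difference is N3KO minus WT on that log2 scale with its standard error (SE) from limma, unless another comparison is named. A gene counts as changed when its limma p, adjusted by Benjamini-Hochberg over all genes tested, is under 0.05.

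Sertoli cells line the seminiferous tubule, hold the germ cells at every stage, and seal the tubule into compartments with junctions between neighbouring Sertoli cells. They supply stem cell factors, iron carriers and lactate to the germ cells, and they answer to testosterone and follicle-stimulating hormone on their behalf. Nanos3 encodes an RNA-binding protein that germ cell precursors need to survive in the embryo, so a mouse testis without it develops somatic cells with few or no germ cells. The comparison therefore sets cells from a testis with few or no germ cells against cells from a testis with spermatogenesis.

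The sorted populations were checked first against whole testes. Of 33 Sertoli genes tested, 24 were higher in N3KO cells than in whole testes, with a median difference of 1.61, and 19 were higher in WT cells, with a median difference of 0.82. Over all genes 41.3% were higher and 34.2% lower in N3KO cells than in whole testes (75.5% either way), and 42% were higher and 40.9% lower in WT cells (83% either way). Leydig cell genes stood further above whole testes than Sertoli genes did: 13 of 14 were higher in N3KO cells (median difference 3.15) and 14 of 14 in WT cells (median difference 4.38). All 12 endothelial genes were higher in WT cells than in whole testes, and 9 of the 12 were higher in N3KO cells. Genes of peritubular myoid cells, which wrap the tubule, were higher in 8 of 10 cases in N3KO cells and in 8 of 9 in WT cells. In cultured Sertoli cells 27 of 33 Sertoli genes were higher than in whole testes (median difference 2.87), and 8 of 13 Leydig genes were lower, beside 44.1% of all genes higher and 47.5% lower there (91.6% either way). Genes of spermatids, the germ cells that remodel into sperm, were summed on the linear scale over 30 genes. The sum was 1320 and 929 times the array's 75th percentile in WT cells, 3960 and 4230 in whole testes, and 4.21 and 4.96 in N3KO cells. The samples labelled Sertoli cells thus carried Sertoli transcripts together with transcripts of interstitial cells, and the WT samples carried spermatid transcripts as well. They are called sorted N3KO and sorted WT cells from here on.

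Precision differed between the genotypes. The 2 N3KO arrays correlated across genes at r = 0.9607, with an SD of 0.787 for the difference between them, and the 2 WT arrays at r = 0.9906, with an SD of 0.379. From 58.8% to 64% of spots were well above background on the N3KO arrays, against 66.2% to 69.7% on the WT arrays. The N3KO arrays shared a slide, where the median background pixel SD was 72.3 to 72.5, while the WT and whole testis arrays shared another slide of the same scan day, where it was 7.1 to 7.4. Genotype and slide cannot be told apart. In bulk samples such as these, fewer cells of a type and less RNA per cell cannot be told apart either.

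Of 21505 genes tested, 1186 (5.51%) were higher in N3KO cells and 2930 (13.6%) lower, which makes 19.1% called in all. An unadjusted p under 0.05 was found for 7715 genes. The median difference over all genes was 0.149. Scaling moved that median to 0.264 under quantile normalization, 0.71 under median scaling, -0.093 with the percentile taken over probes above background on all 4 arrays and 0.323 under normexp background correction. The share of higher genes among those called was 28.8%, and 46.9%, 70.2%, 18.5% and 61% under those settings in the same order.

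Nanos3 itself was low in N3KO cells. Being a germ cell transcript, Nanos3 would be low in any sample with few germ cell transcripts, so its level cannot check the genotype label. Its signal was -7.03 and -7.19 on the N3KO arrays, well above background on neither, against -3.19 and -4.41 on the WT arrays and 1.30 and 1.28 in whole testes. The groups did not overlap, and Nanos3 was at least 3.31-fold lower in N3KO cells (adjusted p = 0.0115). With normexp and its offset of 50, the Nanos3 difference was 0.17 (adjusted p = 0.735).

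Most germ cell transcripts tested fell in N3KO cells. The lists hold markers of spermatogonia, the dividing cells at the tubule wall; of spermatocytes, which pass through meiosis; and of spermatids, which remodel into sperm. Members not well above background in N3KO cells entered the test through their WT signal alone, so their counts are a description. The N3KO arrays were both below that limit for 4 of 11 spermatogonial, 11 of 20 spermatocyte and 13 of 30 spermatid genes, so the size of a difference depends on the WT level and the lists are not ranked by it. The counts that follow stand beside 5.51% of all genes higher and 13.6% lower.

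Of 11 spermatogonial genes tested, 5 fell, none rose, and the median difference was -0.60. Ddx4, the RNA helicase found throughout the germ line, was at -4.45 and -4.22 in N3KO cells, against 2.69 and 2.09 in WT cells, a fall of 6.72 on the log2 scale (SE 0.30, adjusted p = 0.000446). Stra8, which retinoic acid turns on before meiosis, was at -5.71 and -5.62 in N3KO cells, above background on neither array, against -0.23 and -0.06 in WT cells. It was at least 41.8-fold lower in N3KO cells (adjusted p = 0.000394). Dazl, an RNA-binding protein of germ cells, was at least 8.50-fold lower, and Taf7l, a germ cell transcription cofactor, at least 6.24-fold lower. The other 6 did not pass, and Nanos3 is the fifth that fell. Kit, the receptor of KIT ligand on spermatogonia, Leydig cells and mast cells, was at 3.75 and 1.98 in N3KO cells and at 3.30 and 3.15 in WT cells (difference -0.36, adjusted p = 0.708). Uchl1, a ubiquitin hydrolase of spermatogonia and neurons, differed by 1.03 (adjusted p = 0.140) and Id4, an inhibitor of DNA-binding factors, by 0.77 (adjusted p = 0.111).

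Of 20 spermatocyte genes tested, 17 fell and none rose, with a median difference of -6.61. Mael, a piRNA pathway protein, was at -6.18 and -7.54 in N3KO cells against 4.15 and 3.72 in WT cells, at least 705-fold lower (adjusted p = 0.000512). Pgk2, the phosphoglycerate kinase of meiotic and later germ cells, was at -6.56 and -7.28 in N3KO cells against 4.04 and 3.49 in WT cells, at least 628-fold lower. The synaptonemal complex gene Sycp1 was at least 29.8-fold lower and the meiotic cohesin gene Smc1b at least 125-fold lower. Ldhc, the lactate dehydrogenase of spermatogenic cells, separated the N3KO arrays: it was at -3.11 and above background on N3KO array 1, and at -7.64 and not above background on array 2, against 7.25 and 6.74 in WT cells (difference -12.37, SE 1.54, adjusted p = 0.00778). The smallest differences were of Syce2 (-0.77, adjusted p = 0.0839), a synaptonemal complex gene, and of Hspa2 (-1.36, SE 0.26, adjusted p = 0.0288), a heat shock protein gene, whose signals in N3KO cells stayed at 2.89 and 2.88 and at 1.85 and 2.24.

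The 30 spermatid genes listed were measured and tested, and 30 fell; 13 of these were above background on neither N3KO array and 12 on both. Their median was -5.25 and -6.12 on the N3KO arrays, 2.87 and 2.55 on the WT arrays and 5.67 and 5.69 on the whole testis arrays. Prm2, a protamine that replaces histones in the sperm head, was at -4.71 and -4.05 in N3KO cells, against 8.18 and 7.66 in WT cells and 9.28 and 9.42 in whole testes. It had the largest fall among genes with a symbol and above background on all 4 arrays (-12.30, SE 0.35, adjusted p = 0.000387). Prm1, its partner, was at -1.98 and -1.16 in N3KO cells against 8.48 and 8.11 in WT cells (-9.86, SE 0.37). Tnp1, a transition protein that precedes the protamines, was at -3.53 and -3.67 in N3KO cells against 7.89 and 7.01 in WT cells (-11.05, SE 0.36); its whole testis spots were saturated. Smcp, a protein of the mitochondrial capsule of sperm, had the largest fall by lower bound among genes with a symbol, at least 1710-fold, with -5.97 and -7.29 in N3KO cells against 5.46 and 4.96 in WT cells. Tnp2, the other transition protein gene, was at least 817-fold lower. Crem, the transcription factor that turns on many spermatid genes, had the smallest fall of the list (-2.68, SE 0.23, adjusted p = 0.00236), and its 5 probes ranged from -2.68 to 0.17. The spermatid count was 30 lower under each of the 5 scalings used here and without each array in turn, and the spermatocyte count 13 to 17 under the scalings and 15 to 20 without single arrays.

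**Figure D1:**
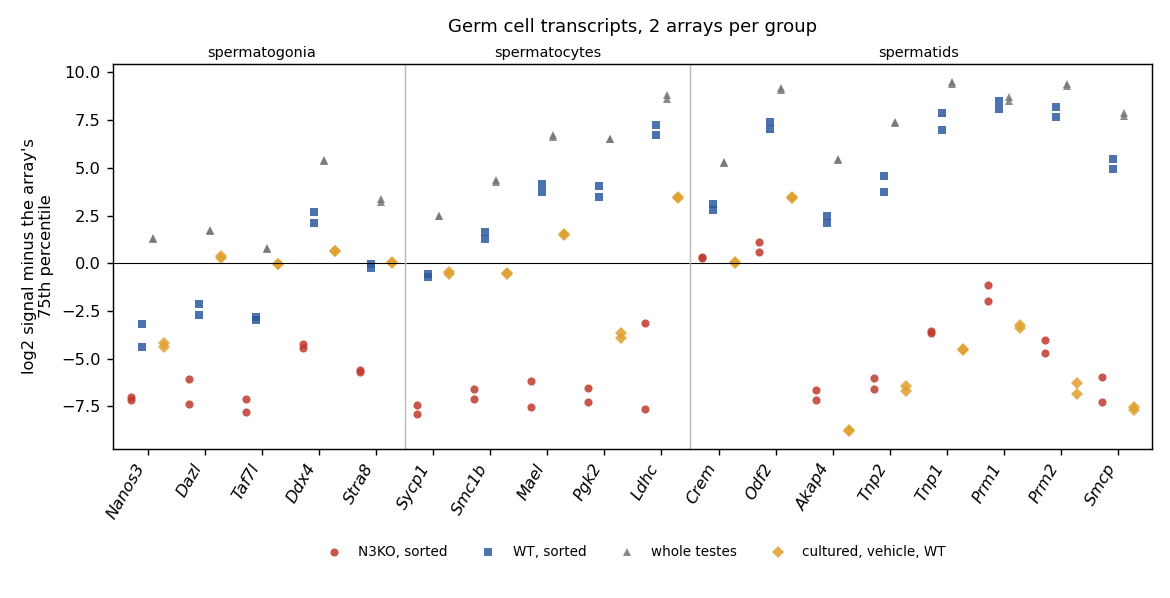
Log2 signal minus the array's 75th percentile for 18 germ cell genes, ordered by stage, with 1 point per array for sorted N3KO cells, sorted WT cells, whole testes and WT cells cultured with vehicle. Each gene's N3KO points lie below its WT points; Prm2 is at -4.71 and -4.05 in N3KO cells, against 8.18 and 7.66 in WT cells, and Crem stays at 0.30 and 0.26 in N3KO cells.

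The promoters of the protamine and transition protein genes are shown because these 4 genes had some of the largest falls and are switched on together in spermatids. The 100 bases before each start site are from RefSeq on build GRCm38.p6, all on the minus strand, written 5′ to 3′. Capitals mark matches to TGANGTCA, where N is any base, read on both strands; it is a loose form of the cyclic AMP response element, and CREM, the protein of Crem, is a textbook binder of that element in spermatids.
Prm1: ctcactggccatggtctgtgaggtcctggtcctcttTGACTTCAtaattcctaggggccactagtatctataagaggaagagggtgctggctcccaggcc
Prm2: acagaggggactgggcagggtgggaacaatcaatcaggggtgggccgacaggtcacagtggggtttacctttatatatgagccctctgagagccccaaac
Tnp1: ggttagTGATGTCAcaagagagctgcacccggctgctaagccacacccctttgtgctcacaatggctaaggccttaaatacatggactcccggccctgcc
Tnp2: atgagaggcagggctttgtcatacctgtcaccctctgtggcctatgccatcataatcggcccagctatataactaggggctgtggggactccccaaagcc
These stretches lie at chr16:10796824-10796923 (Prm1), chr16:10792106-10792205 (Prm2), chr1:73015900-73015999 (Tnp1) and chr16:10788656-10788755 (Tnp2). The match starts 64 bases before the start site in Prm1 and 94 bases before it in Tnp1, and Prm2 and Tnp2 have none in these windows. Of the 30 spermatid genes 25 had a promoter in the RefSeq table, and 10 of these 25 (40%) held the motif in the 100 bases: Prm1, Prm3, Tnp1, Akap3, Akap4, Gapdhs, Tssk1, Tssk2, Actl7b and Izumo1. It was in 5.39% of all 27025 genes with a promoter there, in 1 of 21 spermatocyte genes and in 0 of 22 Sertoli genes. The motif and the window were chosen with the falls known, and a match is a stretch of letters, not a measured binding site.

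To set germ cell loss apart from somatic change, genes were grouped by their level in whole testes. Of the 6058 genes at least 2-fold higher in whole testes than in sorted WT cells, 2702 fell (44.6%) and 144 rose (2.38%), with a median difference of -1.12. Among the 7791 genes within 2-fold, 142 fell (1.82%) and 557 rose (7.15%), and among the 7618 genes at least 2-fold lower in whole testes, 76 fell (0.998%) and 485 rose (6.37%). The first of these classes is called testis-high and the last testis-low. Testis-high genes held 92.2% of all falls and 12.1% of all rises. This grouping shares the WT arrays with the comparison itself, so a WT signal that is low by error favours both a high class and a rise.

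A second grouping took cultured vehicle cells in place of sorted WT cells and shares no array with the comparison. Its whole testis arrays lie on the slide of the WT arrays, so an effect of that slide would enter both. Of 7676 genes at least 2-fold higher in whole testes than in culture, 2846 fell (37.1%) and 140 rose (1.82%). Of 7256 genes at least 2-fold higher in culture, 16 fell (0.221%) and 845 rose (11.6%), so genes high in cultured Sertoli cells held 71.2% of all rises. Only 57 falls, 1.95% of them, lay outside the testis-high class of both groupings, and 36 rises lay inside it in both.

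**Figure D2:**
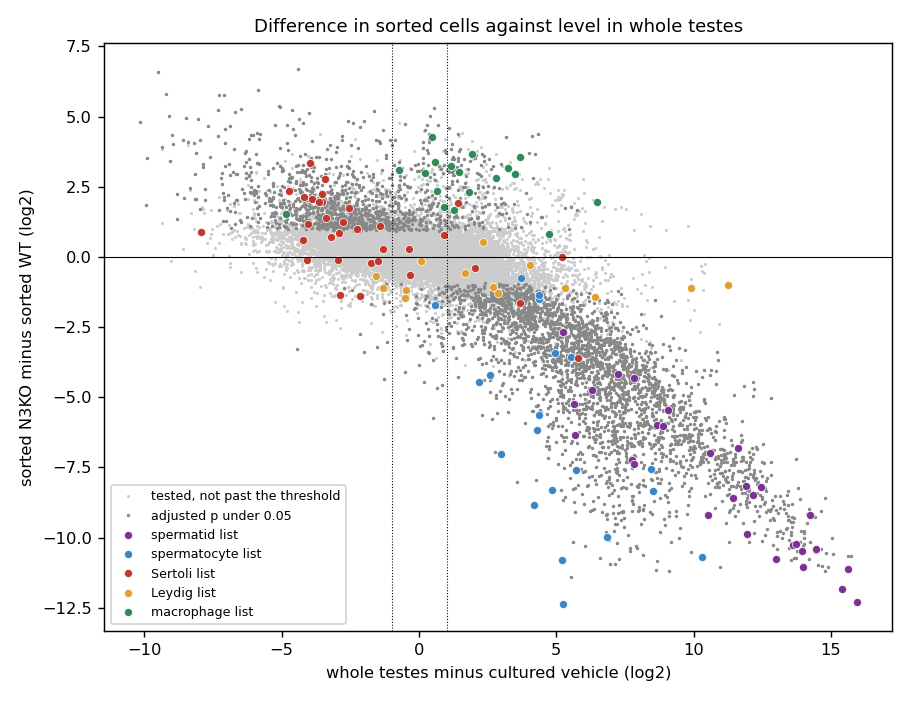
Each point is a tested gene: the difference between whole testes and cultured vehicle cells (log2, x axis) against the difference between sorted N3KO and sorted WT cells (log2, y axis), with 5 marker lists coloured and dotted lines at 2-fold. Spermatid genes run down to -12.30 at the right, Sertoli genes reach from -3.61 to 3.35, and the 18 macrophage genes with a whole testis value lie above 0.

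Among genes with a symbol and above background on all 4 arrays, the largest rises in the testis-high class were of Mfap4, a microfibril protein (4.68, SE 0.70), Cyp26b1 (4.30), described below with the retinoid genes, and Col1a1, a chain of type I collagen (3.67, SE 0.58). Among those within 2-fold of whole testes, apart from Prm1, the largest falls were of Chga, a granin of secretory vesicles (-4.56, SE 0.29, adjusted p = 0.000977), Cnnm1 (-4.27), Rhox5 (-3.61) and Prim2, a primase subunit (-3.39). Chga was at -5.05 and -4.95 in N3KO cells, against -0.73 and -0.14 in WT cells and 0.34 on whole testis array 1. In the testis-low class Prnd, which encodes the doppel protein, fell by 3.36 on the log2 scale, and Itga1, an integrin subunit, was 8.59-fold lower. These classes are those by sorted WT cells. By cultured cells, Chga, Cnnm1, Rhox5, Prnd and Itga1 were testis-high instead, and Prim2 was testis-low. Of the named rises, Cyp26b1 stayed testis-high, Mfap4 lay within 2-fold and Col1a1 was testis-low by cultured cells.

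More Sertoli genes rose than fell in N3KO cells. Of 33 tested, 12 rose and 2 fell, beside 5.51% and 13.6% of all genes, and the median difference was 0.87. Of the 33, 29 were above background on all 4 sorted arrays. Gdnf, a riser described below, was above background on neither WT array and entered the test through its N3KO signal alone. The counts are therefore a description. The N3KO arrays lay above both WT arrays for 22 of the 33, beside 42% of all genes, and below both for 6, beside 26.3%. Summed on the linear scale over 32 of the genes, the signal was 664 and 477 times the array's 75th percentile in N3KO cells and 626 and 602 times in WT cells, so the groups overlapped in the sum.

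Sox9, the transcription factor that sets Sertoli fate, was at 1.64 and 1.70 in N3KO cells and at -0.63 and -0.29 in WT cells, 4.37-fold higher (SE 0.24 on the log2 scale, adjusted p = 0.00562). Its relative Sox8 was 1.97 higher (SE 0.34) and Wt1, another factor of Sertoli identity, 1.25 higher (SE 0.26, adjusted p = 0.0384). Trf, the iron carrier transferrin, was at 2.19 and 3.09 in N3KO cells and at -0.34 and 0.06 in WT cells (2.78, SE 0.39, adjusted p = 0.0115). Mro, a nuclear protein gene of developing male gonads, rose most in the list, to 3.91 and 4.87 in N3KO cells against 0.84 and 1.25 in WT cells, 10.2-fold. Dhh, the hedgehog ligand that Sertoli cells send to Leydig and myoid cells, was at 3.86 and 4.35 in N3KO cells against 1.86 and 2.47 in WT cells (1.94, SE 0.33, adjusted p = 0.0220). The cytoskeletal gene Vim rose by 1.17 (SE 0.24). In each of these genes the groups did not overlap.

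Other Sertoli genes did not pass. Gata4, a transcription factor of the somatic gonad, was at -2.09 and -2.29 in N3KO cells and at -2.32 and -1.81 in WT cells (difference -0.12, adjusted p = 0.775); the sign turned to 0.22, 0.44 and 0.36 under quantile, median and normexp settings, and a second probe gave 0.42. The follicle-stimulating hormone receptor gene Fshr differed by 0.87 (adjusted p = 0.286). The clusterin gene Clu, fitted without WT array 1, whose spot was left out, was at 7.56 and 7.45 in N3KO cells and 7.73 in WT cells.

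Rhox5, an X-linked homeobox gene that testosterone turns on in Sertoli cells, was 1 of the 2 Sertoli genes that fell. It was at -1.12 and 0.01 in N3KO cells, against 2.68 and 3.43 in WT cells and 2.70 and 2.75 in whole testes, and it was at -3.16 and -2.94 in culture. The fall was 3.61 on the log2 scale (-3.61, SE 0.50, adjusted p = 0.0110), or 12.2-fold. Of 8 androgen-responsive Sertoli genes tested, 1 fell, Rhox5, and 0 rose, beside 13.6% of all genes lower and 5.51% higher. The count of falls was thus near the share over all genes. Over the scalings used here, 0 to 2 of the 8 were higher and 1 was lower. The androgen-responsive genes other than Rhox5 ranged from -0.38 for Eppin, a protease inhibitor of the sperm surface (adjusted p = 0.402), to 1.35 for Tubb3, a beta tubulin (adjusted p = 0.0680). Hsd17b1, a steroid dehydrogenase gene, was the other Sertoli gene that fell (-1.34, SE 0.28, adjusted p = 0.0382), and under normexp it differed by 0.48 (adjusted p = 0.286).

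Some junction genes rose in N3KO cells. Of 18 tight junction genes 7 rose, none fell and 11 did not pass, beside 5.51% of all genes higher and 13.6% lower, and the median difference was 1.10. Cldn11, the claudin that Sertoli cells need to seal the tubule, was at 3.38 and 3.80 in N3KO cells and at 1.07 and 1.42 in WT cells, 5.08-fold higher (adjusted p = 0.00669). The adhesion molecule genes Jam2 and Jam3 rose by 2.10 and 1.48. Cxadr, the coxsackievirus and adenovirus receptor of junctions, was at -2.84 and -1.81 in N3KO cells and above background on neither WT array, at least 9.63-fold higher (adjusted p = 0.00701). Cldn4 was at least 5.75-fold higher on the same terms. Cxadr and Cldn4 entered the test through their N3KO signal alone, so the count of 7 is a description. Of the 18 tight junction genes, 14 were above background on all 4 sorted arrays. Tjp1, the scaffold ZO-1, differed by 0.77 (adjusted p = 0.118). Of 18 adhesion genes 6 rose, 1 fell and 11 did not pass, and no rise passed without WT array 1 or without WT array 2. The cadherin Cdh2 (1.81), Vcl, the linker vinculin (1.98, with a second probe at -0.22), Pkp2, Ctnna1, Nectin2 and Actn1 rose. Nectin3, which spermatids present to Sertoli cells, was at 0.19 and 0.05 in N3KO cells against 2.77 and 2.58 in WT cells and 5.28 and 5.31 in whole testes (-2.55, SE 0.22, adjusted p = 0.00255).

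Signals to germ cells included rises of Kitl and Gdnf. Kitl, the KIT ligand, was at 1.35 and 1.39 in N3KO cells and at -0.20 and -1.20 in WT cells (2.07, SE 0.40, adjusted p = 0.0300). Gdnf, which keeps spermatogonial stem cells dividing, was at -4.30 and -4.47 in N3KO cells and above background on neither WT array, at least 2.32-fold higher (adjusted p = 0.00793). Tgfb2, a transforming growth factor, rose by 2.23 (SE 0.45). Of 16 such genes tested 4 rose and none fell, beside 5.51% of all genes higher and 13.6% lower. Over the 5 scalings 2 to 8 were higher, and Gdnf entered the test through its N3KO signal alone. Fgf2 (-1.52, adjusted p = 0.0686), Igf1 (1.85, adjusted p = 0.220) and Cxcl12 (0.36, adjusted p = 0.441) did not pass.

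Wnt4, the fourth riser of that list, is a WNT ligand that the supporting cells of the ovary use and that Sertoli cells keep low in the embryonic testis. It was at 0.42 and 0.24 in N3KO cells, against -4.53 and -4.72 in WT cells, -6.06 and -6.67 in whole testes and 2.13 and 2.08 in culture. The difference was 4.95 (SE 0.23, adjusted p = 0.000470), or 30.9-fold. Among 7 genes of granulosa cells, the ovarian counterpart of Sertoli cells, 4 were tested and 3 rose, beside 5.51% of all genes. Runx1, a transcription factor of the supporting lineage, was at -3.67 and -3.54 in N3KO cells and above background on neither WT array, at least 3.96-fold higher. It entered the test through its N3KO signal alone, so the count of 3 is a description. Fst, the activin-binding follistatin, was 2.63 higher (SE 0.50, adjusted p = 0.0290), and the WNT enhancer gene Rspo1 differed by 2.14 (adjusted p = 0.130). Foxl2 and Esr2, which define granulosa cells, were above background on no sorted array, and the aromatase gene Cyp19a1 on 1 WT array. Of 6 genes of immature Sertoli cells only Id2 rose (1.37, adjusted p = 0.0357), and 0 to 4 were higher over the 5 scalings. Both N3KO arrays lay above both WT arrays for 6 of the 6, beside 42% of all genes, and the median difference was 1.36. That count is a description, because 5 of the 6 were above background on all 4 sorted arrays. The sixth, Amh, was above background on 1 WT array and entered the test through its N3KO signal. Amh, the hormone of fetal and juvenile Sertoli cells, was at -4.32 and -4.55 in N3KO cells and at -6.15 and -4.69 in WT cells (adjusted p = 0.262).

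Of 18 retinoid genes tested 4 rose and 2 fell, beside 5.51% of all genes higher and 13.6% lower, so the falls were near the share over all genes. Cyp26b1, an enzyme that degrades retinoic acid and that Sertoli cells use in the fetal testis to hold back meiosis, was at 2.08 and 2.78 in N3KO cells, against -1.56 and -2.18 in WT cells, 1.17 and 1.18 in whole testes and -3.00 and -2.87 in culture. It was 19.7-fold higher in N3KO cells (SE 0.38 on the log2 scale, adjusted p = 0.00253), and of these groups sorted N3KO cells alone lay above whole testes. The retinol carrier gene Rbp4 rose by 2.49 (SE 0.34) and the retinal dehydrogenase gene Aldh1a3 by 1.72 (SE 0.29). Stra6, the retinol uptake receptor, was lower by 1.33 (-1.33, SE 0.29, adjusted p = 0.0421). Lrat, which stores retinol as esters, was above background on neither N3KO array and at least 2.03-fold lower (adjusted p = 0.0324), a difference that was 0.84 and not called under normexp. Cyp26a1 (-0.61), Aldh1a1 (-0.66) and Aldh1a2 (-0.85) did not pass.

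**Figure D3:**
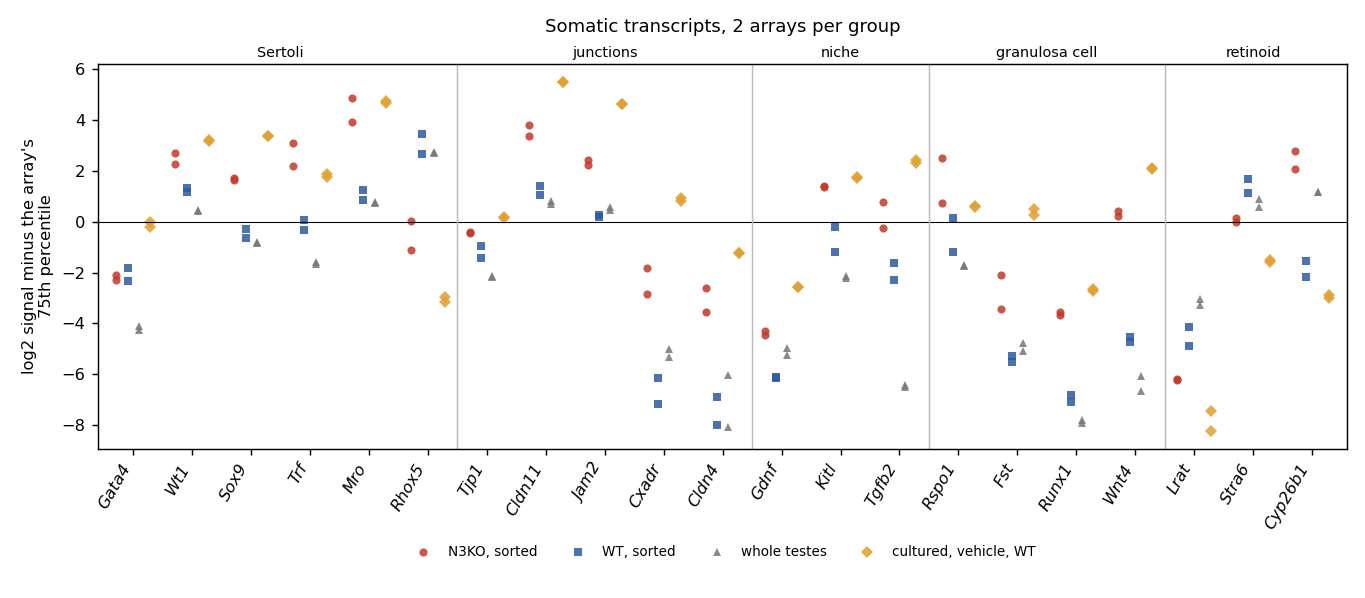
Log2 signal minus the array's 75th percentile for 21 somatic genes, with 1 point per array in each of 4 groups. Wnt4 is at 0.42 and 0.24 in N3KO cells against -4.53 and -4.72 in WT cells, Rhox5 at -1.12 and 0.01 against 2.68 and 3.43, and the Gata4 points of N3KO and WT cells lie within the same range.

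Among genes with a symbol and above background on all 4 arrays, the whey acidic protein family gene Wfdc18 had the largest rise, at 4.86 on each N3KO array against -1.82 and -1.67 in WT cells and -6.20 on whole testis array 1 (6.60, SE 0.22, adjusted p = 0.000387). Bcan, the matrix proteoglycan brevican (5.79, SE 0.91), Fam171b (5.76), Prss12, a serine protease (5.25), Vldlr, a lipoprotein receptor (5.25), Padi2, a peptidylarginine deiminase (5.15), and Creb5, a transcription factor of the CREB family (4.93), followed with Wnt4. Cultured vehicle cells had Bcan at 4.43 and 4.37 and Vldlr at 2.75 and 2.63, above both N3KO arrays (0.00 and 2.62 for Bcan, 0.93 and 2.19 for Vldlr). Among genes with a symbol and above background on neither WT array, the bounds were highest for Spsb4 (54.7-fold or more), Lingo2 (32.0-fold or more) and Adgrg2, an adhesion receptor known from the efferent ducts (12.8-fold or more). Adgrg2 was at -2.34 and -1.49 in N3KO cells, and at -1.06 on cultured array 1. With it, Epcam and Cdh16 rose among 10 duct genes tested, while Aqp9 and Cftr fell, beside 5.51% of all genes higher and 13.6% lower. Of the 10, 5 were above background on all 4 sorted arrays. Adgrg2 and Cdh16, neither of them above background on both WT arrays, entered the test through their N3KO signal, so the rises are a description. Pax8, Lcn8 and Rnase9, which mark the ducts and epididymis, were above background on no N3KO array.

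Counts in the lists of metabolism, cell division and matrix are to be read beside the 5.51% of all genes higher and 13.6% lower. Among 18 lactate and glycolysis genes 2 rose and 4 fell, not far from those shares. Hk2, a hexokinase, was at 3.64 and 4.46 in N3KO cells against 1.67 and 2.30 in WT cells (2.06, SE 0.41), and the lactate exporter gene Slc16a3 rose by 1.20. The lactate importer gene Slc16a7 was at -3.16 and -1.57 in N3KO cells, against 2.17 and 1.73 in WT cells and 4.95 on whole testis array 1 (-4.32, SE 0.59, adjusted p = 0.0106). Hk1, a hexokinase with germ cell isoforms, fell by 2.32 on the log2 scale, and Slc2a3 and Pfkp fell too, Pfkp with a second probe at 0.03. Among 21 cell cycle genes 4 rose, the cyclin gene Ccna2 (1.75) and the replication licensing genes Mcm3, Mcm4 and Mcm6 (2.08 for Mcm6). The 5 that fell were Ccnb1, Ccnb2, Bub1, Aurka and Plk1, all of mitotic entry and spindle control and each higher on whole testis array 1 than on either WT array; the 3 Ccnb1 probes ranged from -2.73 to 1.60. Of 24 matrix genes 3 rose, Col1a1, the gelatinase gene Mmp2 (3.33) and the laminin gene Lama1 (1.36). Of 13 iron genes Trf and Slc39a14 rose, Slc39a14 with a second probe at -0.14. None of 18 cholesterol synthesis genes passed (limma; 3 with an unadjusted p under 0.05, median difference 0.26, and 18 of 18 higher on N3KO array 1 than on array 2); over the 5 scalings 0 to 5 of them were higher.

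Genes of other cell types differed alongside these lists. Of 19 macrophage genes tested 5 rose, none fell, the median difference was 2.97, and both N3KO arrays lay above both WT arrays in 16, beside 5.51% of all genes called higher and 42% with N3KO above WT on every array. Lyz2, the lysozyme of phagocytes, was at 7.24 and 7.79 in N3KO cells and at 4.67 and 5.75 in WT cells (2.31, SE 0.45, adjusted p = 0.0327). Itgam was at least 7.07-fold higher, the Fc receptor gene Fcgr1 3.67 higher (SE 0.71) and the adaptor gene Tyrobp 3.03 higher (SE 0.57). Of the 19 macrophage genes, 2 were above background on neither WT array and entered the test through their N3KO signal alone. Adgre1, an adhesion receptor that defines mouse macrophages, was at 2.15 and 5.11 in N3KO cells and at -0.47 and 0.58 in WT cells, and did not pass (3.57, SE 1.07, adjusted p = 0.0914). Summed on the linear scale over 18 macrophage genes, the signal was 217 and 447 times the array's 75th percentile in N3KO cells and 38.0 and 74.5 times in WT cells. Ptprc, the leukocyte gene CD45, rose by 3.70. Among 30 lysosome and phagocytosis genes 2 rose and none fell, so the rises were near the 5.51% of all genes higher. These were Ctss, a cathepsin of macrophages, which rose by 4.09, and Axl, a receptor for dying cells on Sertoli cells and macrophages, by 1.81. The part of macrophages in the Ctss and Axl results was not tested.

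Of 14 Leydig genes tested only Agt, angiotensinogen, passed, lower by 1.11 (-1.11, SE 0.24, adjusted p = 0.0426), beside 13.6% of all genes lower. The median difference of the list was -1.09. Both N3KO arrays lay below both WT arrays in 10 of the 14, beside 26.3% of all genes. Insl3, the Leydig cell peptide hormone, was at 8.90 and 8.57 in N3KO cells and at 9.81 and 9.65 in WT cells. Insl3 did not pass (difference -0.99, limma adjusted p = 0.0577), and its difference was 0.05 under quantile normalization. Its WT spots were saturated, so the difference may be understated. The side-chain cleavage gene Cyp11a1 differed by -1.27 (adjusted p = 0.0936) and the cholesterol transporter gene Star by -1.10 (adjusted p = 0.175). The summed signal of the 14 genes was 1540 and 923 in N3KO cells and 2390 and 2300 in WT cells. Neither the 10 myoid genes nor the 12 endothelial genes had a member that passed in limma; an unadjusted p under 0.05 was found for 1 myoid gene, Tagln (-2.07, fitted without WT array 2), and for 0 endothelial genes.

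The N3KO duplicates differed from each other by cell type. Over genes above background on all 4 sorted arrays, N3KO array 1 was higher than array 2 for 12 of 12 endothelial genes (median difference between the arrays 1.88), 9 of 9 myoid genes (1.13) and 13 of 14 Leydig genes (0.98). Array 2 was higher for 12 of 17 macrophage genes (-1.82), while Sertoli genes split into 14 and 15 with a median of -0.03. The genes with a symbol that differed most were Ly6d (3.18 on array 1 and -3.58 on array 2) and Lrrn3 (-4.90 and 0.13), and then Cd163, F13a1, Slc40a1 and Vsig4, all higher on array 2; Cd163 and Vsig4 are receptors of resident macrophages and were at -1.89 and 3.06 and at -2.10 and 2.70. Between the WT duplicates the median difference, array 1 minus array 2, was 0.48 for endothelial, 0.52 for myoid, -0.11 for Leydig, -0.89 for macrophage and -0.35 for Sertoli genes, the last larger in size than between the N3KO arrays.

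**Figure D4:**
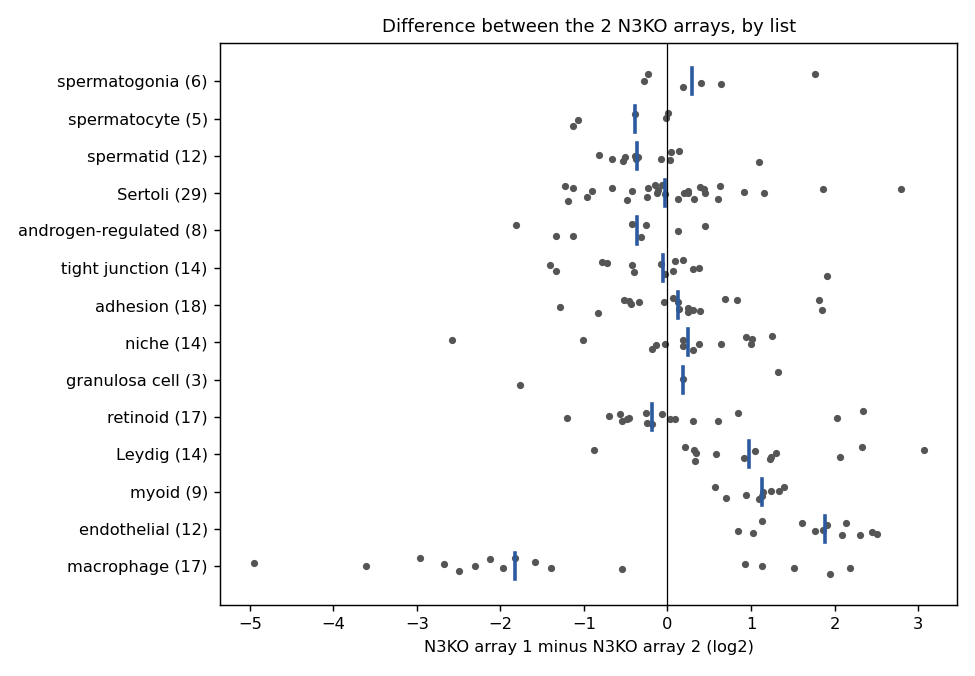
Difference between N3KO array 1 and N3KO array 2 (log2) for genes above background on all 4 sorted arrays, by list, with 1 point per gene, the number of genes in brackets and a bar at the median. Endothelial genes lie at the right with a median of 1.88, macrophage genes mostly at the left with a median of -1.82, and Sertoli genes around -0.03.

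Counts of somatic genes depended on single arrays. Of the Sertoli genes 15 and 13 were higher without N3KO array 1 or 2, and 1 and 2 without WT array 1 or 2, against 12 with all arrays. The tight junction count of 7 became 12, 8, 2 and 4 in the same order, the adhesion count of 6 became 10, 8, 0 and 0, and the macrophage count of 5 became 19, 16, 0 and 2. Without N3KO array 1, 11 Leydig and 10 endothelial genes were lower, against 2 and 0 without N3KO array 2. Over the 5 scalings 9 to 16 Sertoli, 6 to 12 tight junction, 1 to 11 adhesion and 5 to 16 macrophage genes were higher. In a model of 10 arrays, where the tighter replicates of the other groups share in the spread, 16 Sertoli, 12 tight junction, 9 adhesion and 16 macrophage genes were higher.

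**Figure D5:**
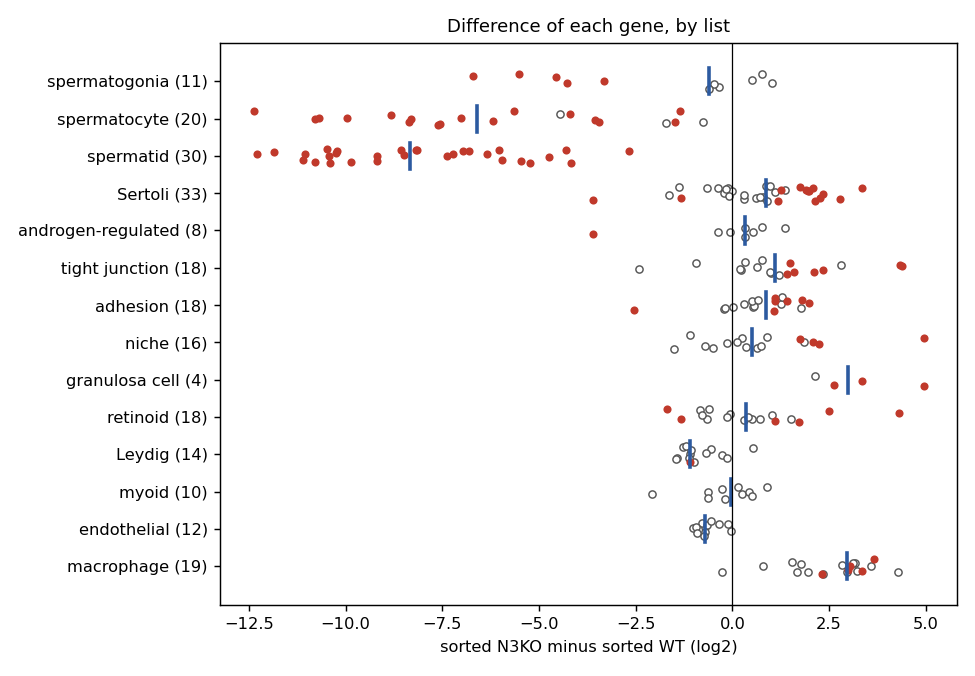
Difference between sorted N3KO and sorted WT cells (log2) for each tested gene of 14 lists, with the number tested in brackets, filled red points for genes with an adjusted p under 0.05, open points for the others and a blue bar at the median. The medians run from -8.34 for spermatid genes to 2.98 for granulosa cell genes, 0.87 for Sertoli genes and 2.97 for macrophage genes.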

How the data were processed

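The series holds 34 one-colour Agilent arrays; the 10 of testis and Sertoli cells were read and the tubule arrays were not used here. Per the labels, 0.2 µg of total RNA went into each Cy3 labelling. The files hold intensity values that the authors deposited without scaling between arrays; the file headers name Feature Extraction 9.5.3.1 as the software that read the spots and subtracted background (9.5 per the submitters' processing notes). The deposited files also hold other columns, marks of 0 or 1 for spots well above background, saturated or outlying, and the median signals; the mean signal is not used here. Per the labels each array is 1 sample, so the number of arrays limits the precision.

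Control spots (1639 of 45018) and outlier spots (66 to 219 per sorted array) were left out, spots of a probe averaged, and log2 of the processed signal taken minus the array's 75th percentile. Probes took RefSeq symbols by accession (22951) or symbol (67), and 18156 kept the files' identifier. The brightest probe stood for each of 33370 genes. The test covered genes detected, that is well above background, on the 2 arrays of either genotype. limma 3.58.1 (R 4.3.3) was fitted to the 4 arrays compared, two-sided, with Benjamini-Hochberg adjustment; the plots used matplotlib 3.10.9. Where a gene was undetected on both arrays of a group, its fold is a lower bound: each such array takes its own lowest detected signal, or the gene's own signal if that is higher.

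On simulated data with 2 arrays per group, 10% of 4-fold, 58% of 16-fold and 82% of 256-fold changes were recovered, and none of 2-fold changes. There were 2 false calls among 21341 unchanged genes, of 21541 simulated. The simulation gave both groups the same spread for a gene and left most genes unchanged, while 19.1% were called here and the N3KO duplicates varied more. These rates therefore cannot be carried over to the comparison. The replicate numbers do not pair the genotypes (correlation of deviations 0.094). The 27 lists have 472 of 501 genes measured. They are described by counts without a test of their own. Members, lists and motif were chosen with earlier results of these data known. Genes were named by rule: 8 genes always, the largest rises and falls over all genes, by lower bound and in each class by whole testes, list members with the smallest adjusted p or extreme differences, and those in which the N3KO arrays differ most; from these, and from lists given as a whole, the text shows a selection; other list members were named after their values were seen. Alternatives changed the scaling, background, filter, probe rule, model, threshold and arrays. A few list members count in the totals and are not reported here by name.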

Additional observations from a re-analysis of the deposited data

How the results depend on the processing

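The number of genes higher in N3KO cells was 1186, and it was 2471 with quantile normalization, 6446 with median scaling, 708 with the percentile over probes above background on all 4 arrays, 2877 with normexp, 775 without a detection filter, 760 with detection on all 4 arrays, 6494 in a model of 10 arrays, 3653 in a model of 6 arrays and 1914 with an intensity trend. Leaving out 1 array gave 195 to 4851, with 4851 and 2528 without N3KO arrays 1 and 2, and 195 and 204 without WT arrays 1 and 2. The number lower was 2930, and it was 1836 with normexp, 977 with detection on all 4 arrays and 4397 in the model of 10 arrays; leaving out 1 array gave 1931 to 5421, the extremes being without WT array 1 and without N3KO array 1. The mean of detected probes, the replicate block and a 2-fold minimum left both counts within 1.5 times; the replicate block called 980 higher and 2863 lower, with 11 macrophage and 3 adhesion genes higher, and the replicate numbers do not pair the arrays. Genes high in whole testes held 92.2% of the falls, and 97.1% when classed by cultured cells. They held 12.1% of the rises, 3.71% with a class limit of 4-fold, and 10.6% to 19.5% with 1 array left out, highest without WT array 1; without N3KO array 1 the share of the falls was 64.5%. Of 79 genes followed, 59 of which could be tested with detection on all 4 arrays, 5 reversed under some setting. Under normexp Nanos3 was at 0.17, Hsd17b1 at 0.48, Lrat at 0.84 and Gata4 at 0.36; Gata4 was also at 0.22 with quantile normalization, 0.44 with median scaling, 0.15 with the mean of detected probes, and -0.38 to 0.13 with 1 array left out, positive without WT replicate 2; Insl3 was at 0.05 with quantile normalization. The causes were not tested. Without WT arrays 1 and 2, 39 and 34 of these genes lost their call, where 1 array stands for WT and is assumed to vary like the N3KO pair.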

Other observations

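Inflammatory ligand genes were among the named rises. Tnf was at -0.74 and -3.83 in N3KO cells and above background on neither WT array, at least 9.89-fold higher (limma adjusted p = 0.0478), and the chemokine gene Ccl3 was at 1.53 and -1.20 in N3KO cells against -4.34 and -4.36 in WT cells (4.51, SE 0.94, adjusted p = 0.0379). Both were higher on N3KO array 1. Of 20 interferon response and antigen presentation genes tested, Gbp2 rose (1.29) and Oasl1 fell (-1.21), beside 5.51% and 13.6% of all genes.

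Of 22 lipid genes 2 rose and 1 fell, counts near or below the 5.51% and 13.6% over all genes. Cidea, a lipid droplet protein gene, was at 5.43 and 5.76 in N3KO cells against 2.63 and 3.51 in WT cells (2.52, SE 0.38, adjusted p = 0.0142), and Pparg, a nuclear receptor of fat storage, rose by 1.83. Fabp3, a fatty acid carrier gene, was at 8.05 and 7.63 in N3KO cells against 9.32 and 9.20 in WT cells (-1.42, SE 0.26), with 1 saturated spot. Of 17 immediate early and heat shock genes Hspb1 rose by 1.99 and Jund by 1.20, and none fell, beside the same shares. The T cell receptor gene Cd3d was lower in N3KO cells, at -6.71 and -7.69 against -0.83 and -1.51 in WT cells and 2.15 on whole testis array 1 (at least 20.4-fold), while Cd3e differed by 0.89 (adjusted p = 0.130). Of 3 erythroid genes tested 1 fell, the others did not pass, and the median difference was -1.63.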
